A study of Homo sapiens with 42 samples.

Results

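Messenger RNAs for ribosomal proteins, which carried a lower rate of A-to-G change than most genes in both kinds of library, fell in rRNA-depleted relative to poly(A) libraries of HEK293T cells with a cytoplasmic TadA-8e, after each library was centred on its median gene: 74 of 79 fell, beside 11% of all genes tested, and their median difference was -0.62 log2. Replication-dependent histone mRNAs, several small structured RNAs and the long noncoding RNA MALAT1 were listed mostly or only in the rRNA-depleted table. Listed only in the poly(A) table, which holds more sites, were 697 genes with at least 5 sites there. In the rRNA-depleted table only, they numbered 74. These results come from every row of the 2 deposited site tables for the cytoplasmic enzyme, 345061 sites from rRNA-depleted RNA and 907935 sites from poly(A) RNA. They hold 4 of the 42 samples of the series.

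The cells were HEK293T, a human embryonic kidney line that carries the SV40 T antigen, of unmodified genotype. All 4 libraries came from cells that transiently expressed NES_TadA-8e_GFP from a transfected plasmid and were sorted for GFP. TadA-8e is an adenosine deaminase evolved from a bacterial tRNA enzyme, and NES names a nuclear export signal. The first group was total RNA after removal of rRNA (2 libraries) and the second was RNA captured by its poly(A) tail (2 libraries). Both kinds were made with one stranded preparation kit, per the labels' protocols. The labels do not say whether the replicates, or the 2 kinds of library, came from the same transfection, so the kind of library and the culture cannot be told apart, and p-values measure only the spread between these libraries.

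The deaminase turns adenosine into inosine, which sequencing reads as G. The share of reads with G at an adenosine (the rate) thus depends in part on how often RNA molecules met the enzyme. It also differed with the preceding base, as given below. An enzyme kept in the cytoplasm marks RNA after export. Poly(A) selection keeps mature mRNA and other tailed RNA, whereas rRNA depletion also keeps RNA without a tail, such as replication-dependent histone mRNAs (which end in a stem-loop), RNAs made by RNA polymerase III, circular RNA and unfinished transcripts. A table lists a site only when the authors' adjusted p-value was under 0.05 in both replicates, and gives no read counts. A site missing from a table therefore says nothing about its rate, the depth behind a rate is unknown, and sites listed in both tables had to pass this call in each table.

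To show what the sites look like, the base in capitals marks the changed adenosine in 10 bases of flank on each side, 5′ to 3′ on the RNA's strand, from the RefSeq promoter windows of GRCh38.p14. Candidates were the shared sites in these windows whose replicates differed by at most 5 percentage points in both groups (1027 sites). Sites without the full flank in a window, and those on some chromosomes, are not shown. Among the rest, these had the largest differences of different genes, higher in rRNA-depleted libraries for DCAF10 (chr9:37800972-37800992, plus strand), PPP2CA (chr5:134226061-134226081, minus strand), VTA1 (chr6:142147292-142147312, plus strand) and ATF3 (chr1:212615012-212615032, plus strand).
DCAF10: tcgccactacAtcccggggct
PPP2CA: ccgccattacAgagagccgag
VTA1: ccgcgcttgcAccgctgcccc
ATF3: tttcagcaaaAtgatgcttca
The rate at the DCAF10 site was 40.2% and 39.3% in rRNA-depleted libraries, against 13.3% and 10.6% in poly(A) libraries. At the ATF3 site, in the mRNA of a stress-induced transcription factor, it was 41.5% and 44.7% in rRNA-depleted libraries, against 20.1% and 18.8% in poly(A) libraries. Both rRNA-depleted values lay above both poly(A) values at each of these 4 sites.

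The opposite order was found at sites of TUBA1B (chr12:49131361-49131381, minus strand), RFNG (chr17:82050737-82050757, minus strand), RPS23 (chr5:82278316-82278336, minus strand) and STK16 (chr2:219245723-219245743, plus strand).
TUBA1B: ctcgactcttAgcttgtcggg
RFNG: tgtcatcaacAccaactgctc
RPS23: tggcgccgacAggatgggtga
STK16: ctgaggccgtAaggcgcctga
The TUBA1B site, in an alpha-tubulin mRNA, was at 31.1% and 30.3% in rRNA-depleted libraries, against 47.8% and 52.1% in poly(A) libraries. The RPS23 site, in the mRNA of a small-subunit ribosomal protein, was at 6.49% and 9.67% in rRNA-depleted libraries, against 16.5% and 17% in poly(A) libraries. These sites were chosen for their differences, so no test is given. Over all sites that fell in the windows, the reference base was A at 100% of 2025 shared, 448 rRNA-depleted-only and 4517 poly(A)-only sites. U came before the adenosine at 45.4% of the shared sites, at 39.5% of those listed in rRNA-depleted RNA only and at 35.6% of those listed in poly(A) RNA only. Shared sites with U before them averaged 22.8% and 27.9% in rRNA-depleted libraries, against 18.7% and 18.5% in poly(A) libraries. Shared sites with A before them averaged 10.9% and 13.4% in rRNA-depleted libraries, against 7.90% and 7.89% in poly(A) libraries. The order of the preceding bases by rate, U, C, G, A, was the same in the 4 libraries at shared sites.

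Of the listed sites, 286508 were in both tables, 83.0% of the rRNA-depleted and 31.6% of the poly(A) sites. Over these shared sites the mean rate was 18.1% and 22.3% in the rRNA-depleted libraries, against 13.8% and 13.8% in the poly(A) libraries. The group means were 20.2% ± 2.95 in rRNA-depleted and 13.8% ± 0.0135 in poly(A) libraries (SD, n = 2 each). The difference of 6.41 percentage points had p = 0.333 (exact two-sided permutation test), which is the smallest p that 2 against 2 libraries allow. The size of the difference rests on which rRNA-depleted library is used: it was 4.32 points without replicate 2 and 8.49 points without replicate 1. At 63.5% of shared sites both rRNA-depleted rates lay above both poly(A) rates, and at 2.91% they lay below. Sites listed in rRNA-depleted RNA only averaged 15.3% and 17%, and sites listed in poly(A) RNA only averaged 9.84% and 9.80%. Across shared sites, Pearson's r was 0.859 between the rRNA-depleted replicates, 0.906 between the poly(A) replicates and 0.797 to 0.834 between kinds. These points share libraries and genes.

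**Figure D1:**
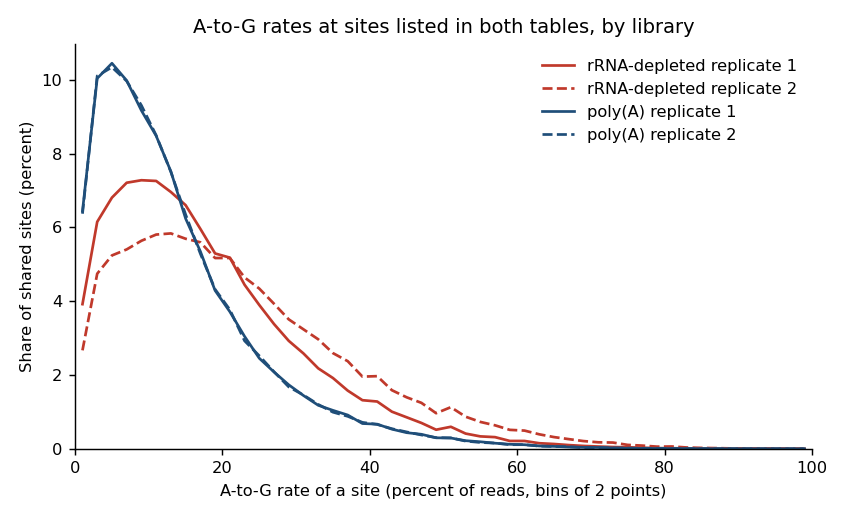
Distribution of A-to-G rates over the 286508 sites listed in both tables (x axis, percent of reads in bins of 2 points; y axis, percent of sites) for each of the 4 libraries. The 2 poly(A) curves overlie each other, and both rRNA-depleted curves lie to their right, that of replicate 2 (mean 22.3%) farther than that of replicate 1 (mean 18.1%).

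Single sites differed by far more than the average. In CDC27, which encodes a subunit of the anaphase-promoting complex, the site at chr17:47120003 (minus strand) was at 60.0% and 62.1% in rRNA-depleted libraries, against 9.69% and 10.5% in poly(A) libraries. The site of TANGO2 at chr22:20065015 (plus strand) was at 65.5% and 65.1% in rRNA-depleted libraries, against 16.1% and 18.5% in poly(A) libraries. QRICH1, ZFX, ATP6V1A (a subunit of the vacuolar proton pump) and TBL1XR1 had the other sites with the largest positive differences, 44.6 to 46.9 points. In the other direction, the histone gene H2BC17 led with a site at chr6:27893713 (plus strand) that was at 2.48% and 5.91% in rRNA-depleted libraries, against 44.0% and 43.6% in poly(A) libraries. Sites in FAM131A, HSBP1, SLC30A9, ERC1 and the linker histone gene H1-2 followed, lower by 28.1 to 32.7 points. Replicates differed by at most 5 points in both groups at these 12 sites, which were picked for their difference out of 135453 such sites and carry no test.

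Per gene, the rate was the mean over its shared sites, with at least 5 of them, and 6346 genes were tested with limma. The median gene was at 21.8% and 26.9% in rRNA-depleted libraries, against 16.5% and 16.5% in poly(A) libraries, a shift of 0.55 log2. Every library was centred on its median gene, and gene differences below are relative to this shift unless called as deposited. On that scale 479 genes rose (7.55% of those tested) and 696 fell (11% of those tested), at an adjusted p under 0.05 (limma, Benjamini-Hochberg), so 40.8% of calls were higher. As deposited, without centring, 3816 genes were higher (60.1%) and 30 lower (0.473%), so that 99.2% of calls were higher. The calls rest on which libraries are kept, since each group has 2: without poly(A) replicate 1, 127 genes rose and 338 fell, and without poly(A) replicate 2, 152 rose and 316 fell. Without rRNA-depleted replicate 1, 730 rose and 884 fell, and without rRNA-depleted replicate 2, 1011 rose and 1350 fell.

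**Figure D2:**
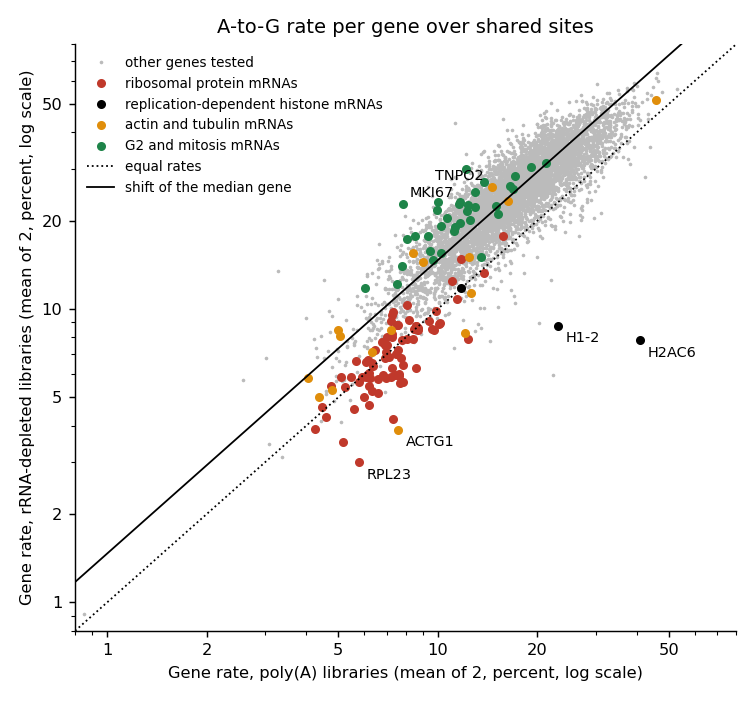
Mean A-to-G rate per gene over shared sites in the 2 rRNA-depleted libraries (y axis) against that in the 2 poly(A) libraries (x axis), both in percent on log scales, for 6346 genes. The solid line is the shift of the median gene and the dotted line marks equal rates. Most ribosomal protein mRNAs (red) lie near or under the dotted line, G2 and mitosis mRNAs (green) mostly lie on or above the solid line, and H1-2 and H2AC6 lie far below both.

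Ribosomal protein mRNAs, which encode the proteins of the cytosolic ribosome, stood apart from the bulk of genes. Of the 79 measured, 74 fell and none rose relative to the median gene, and their median difference was -0.62 log2, beside -0.03 log2 for all genes tested. After centring, all 79 had both rRNA-depleted libraries below both poly(A) libraries, beside 33.8% of all genes. At an unadjusted p under 0.05 (limma), 0 rose and 76 fell. As deposited, their median was -0.07 log2 (0 rose and 7 fell, beside 60.1% and 0.473% of all genes), while the median gene was 0.55 log2 higher. Their median rate was 5.51% and 8.09% in rRNA-depleted libraries, against 7.19% and 7.23% in poly(A) libraries. In rRNA-depleted replicate 1 the list lay below both poly(A) libraries, and in replicate 2 above them, on the scale as deposited. After centring, the list's median was -0.75 log2 with rRNA-depleted replicate 1 alone and -0.49 log2 with replicate 2 alone.

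RPL23, a large-subunit protein gene on chromosome 17, had the largest fall of the list. Its rate was 1.89% and 4.10% in rRNA-depleted libraries, against 5.66% and 5.92% in poly(A) libraries, so the groups did not overlap even before centring. Its centred difference was -1.61 log2 (SE 0.17, limma adjusted p = 5.46e-05, n = 2 libraries each). RPS3, a small-subunit protein gene that is also known for a DNA repair role, was at 2.96% and 5.46% in rRNA-depleted libraries, against 7.18% and 7.42% in poly(A) libraries (-1.41 log2, SE 0.13, limma adjusted p = 1.95e-05). RPS29, named after its values were seen, was at 6.31% and 9.48% in rRNA-depleted libraries, against 11.6% and 13.1% in poly(A) libraries. The 4 list members with the most shared sites, RPL4, RPL3, RPL15 and RPS4X, differed by -0.63, -0.52, -0.62 and -0.68 log2 and all passed the test, and the sign of RPL3 was positive as deposited (0.03 log2). RPL5, also named after its values were seen, lay nearest to the median gene, at 8.63% and 10.9% in rRNA-depleted libraries, against 7.25% and 7.37% in poly(A) libraries (-0.14 log2, limma adjusted p = 0.16).

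Ribosomal protein mRNAs have many shared sites and low rates, and the part of site number, rate and site listing in the result was not tested. In the fifth of genes with the most shared sites (66 to 832), 60 ribosomal protein genes had a median of -0.61 log2 and the 1209 other genes 0.01 log2. In the fifth with the highest share of poly(A) sites also listed in rRNA-depleted RNA (54.2% to 100%), 57 of them had a median of -0.61 log2 and the 1212 other genes -0.01 log2. In the fifth with the lowest poly(A) rates (0.854% to 11.9%), 76 ribosomal protein genes had a median of -0.62 log2 and the 1194 other genes 0.03 log2.

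Nuclear-encoded respiratory chain mRNAs also leaned lower. Of 76 tested, 33 fell and none rose (3 rose at an unadjusted limma p under 0.05), with a median of -0.34 log2, beside 11% of all genes that fell and 7.55% that rose. As deposited, 21 rose and 4 fell, beside 60.1% and 0.473% of all genes, and the median was 0.21 log2. Without a variance trend 13 fell. COX7C, a small subunit of cytochrome c oxidase named after its values were seen, was at 4.10% and 6.33% in rRNA-depleted libraries, against 6.94% and 6.92% in poly(A) libraries (-1.0 log2, SE 0.11, limma adjusted p = 6.05e-05). UQCRB, a subunit of the cytochrome bc1 complex, was at 9.01% and 11.9% in rRNA-depleted libraries, against 15.9% and 18.4% in poly(A) libraries (-1.27 log2, SE 0.15, limma adjusted p = 0.000106). Among the members with the most sites, the ATP synthase genes ATP5F1B, ATP5F1A and ATP5PB fell by 0.37, 0.35 and 0.41 log2, all 3 losing the call without either poly(A) library and all 3 positive as deposited, and SDHA differed by -0.14 log2 (limma adjusted p = 0.218). The count of 33 became 21 without poly(A) replicate 1 and 19 without poly(A) replicate 2.

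Actin and tubulin mRNAs and their small partners followed the same direction in part. Of 16 tested, 8 fell and 1 rose, with a median of -0.31 log2, beside 11% of all genes that fell and 7.55% that rose. As deposited the balance was the other way, with 7 higher and 2 lower, beside 60.1% and 0.473% of all genes. The median was then 0.24 log2. The falls were 4 without poly(A) replicate 1 and 3 without a variance trend. ACTG1, which encodes cytoplasmic gamma-actin, was at 2.78% and 4.96% in rRNA-depleted libraries, against 7.63% and 7.57% in poly(A) libraries (-1.59 log2, SE 0.12, limma adjusted p = 4.41e-06). Its close relative ACTB, cytoplasmic beta-actin, was at 4.06% and 6.52% in rRNA-depleted libraries, against 4.83% and 4.71% in poly(A) libraries, so the groups overlapped as deposited. ACTB fell by 0.44 log2 after centring (SE 0.10, limma adjusted p = 0.00666) and was higher as deposited (0.11 log2), and it lost the call without a variance trend. ACTG1 and ACTB are similar in sequence and have pseudogenes, and how reads that fit several genes were treated is not given in the sources used here. TMSB10, a thymosin that binds actin monomers and was named after its values were seen, fell by 1.13 log2. TUBA1B fell by 0.40 log2, losing the call without poly(A) replicate 1 and positive as deposited, and TUBB differed by -0.11 log2 (limma adjusted p = 0.618).

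Among 22 translation factor mRNAs, 9 fell and 2 rose, with a median of -0.20 log2, beside 11% of all genes that fell and 7.55% that rose. As deposited, 8 were higher and 0 lower, beside 60.1% and 0.473% of all genes, with a median of 0.35 log2. Without a variance trend 1 fell and 0 rose. EEF1A1, the factor that delivers aminoacyl-tRNA to the ribosome, was at 3.24% and 5.06% in rRNA-depleted libraries, against 4.42% and 4.47% in poly(A) libraries (-0.69 log2, SE 0.09, limma adjusted p = 0.000159). EIF4G1, the scaffold of the cap-binding complex, and EIF5 rose by 0.23 and 0.25 log2, both losing the call without either poly(A) library, and EEF2, the translocase, differed by -0.09 log2 (limma adjusted p = 0.321). The list's 9 falls became 2 without poly(A) replicate 1, 3 without poly(A) replicate 2 and 14 without rRNA-depleted replicate 2. Of 16 snoRNA-hosting and cytoplasmic long noncoding RNAs, 6 fell and 2 rose, with a median of -0.29 log2, beside 11% of all genes that fell and 7.55% that rose. As deposited, 6 were higher and 0 lower, beside 60.1% and 0.473% of all genes, with a median of 0.26 log2. The 6 falls became 3 without a variance trend, 2 without poly(A) replicate 1 and 3 without poly(A) replicate 2. SNHG29 was at 6.54% and 9.85% in rRNA-depleted libraries, against 8.87% and 8.97% in poly(A) libraries (-0.71 log2, SE 0.09, limma adjusted p = 0.000156). GAS5 fell by 0.45 log2 (the call lost without poly(A) replicate 1, and positive as deposited), SNHG16 rose by 0.47 log2 (lost without poly(A) replicate 2), and NORAD, a cytoplasmic RNA that binds Pumilio proteins, differed by 0.12 log2 (limma adjusted p = 0.275).

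Replication-dependent histone mRNAs gave the most extreme values. The 34 symbols listed in either table all had sites in rRNA-depleted RNA (581 sites), against 8 with sites in poly(A) RNA (163 sites). For the 26 symbols absent from the poly(A) table, no rate can be compared. Their genes are similar copies, so how reads were divided among them is uncertain. The median rate over symbols was 3.25% and 5.65% in rRNA-depleted libraries, against 28.6% and 27.5% in poly(A) libraries, over different sets of symbols and sites. At the sites listed in both tables, 3 of 3 genes with enough of them fell, H1-2, H2BC12 and H2AC6, beside 11% of all genes.

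H1-2, a linker histone gene on chromosome 6, had 32 shared sites, at 6.37% and 11.2% on average in rRNA-depleted libraries, against 23.6% and 22.7% in poly(A) libraries. The groups did not overlap, and the centred difference was -2.01 log2 (SE 0.14, limma adjusted p = 2.26e-06; -1.46 log2 as deposited). Both rRNA-depleted rates lay below both poly(A) rates at 31 of the 32 sites. At base 142 of its RefSeq interval the rate was 18.7% and 32.7% in rRNA-depleted libraries, against 84.8% and 80.2% in poly(A) libraries. H2AC6, with 5 shared sites, was at 7.93% and 7.69% in rRNA-depleted libraries, against 38.2% and 43.7% in poly(A) libraries (-2.94 log2, SE 0.21, limma adjusted p = 2.26e-06). H2BC12 was the member with the most poly(A) sites, 106, and its difference was smaller: 10.5% and 13% in rRNA-depleted libraries, against 11.9% and 11.6% in poly(A) libraries, which overlap as deposited (-0.56 log2, limma adjusted p = 0.000496; -0.01 log2 as deposited). Of 9 polyadenylated histone variant mRNAs, which are made outside S phase as well, 2 fell and none rose, beside 11% and 7.55% of all genes. This list was chosen after the data were read. At an unadjusted limma p under 0.05, 1 rose. The list's median was -0.18 log2 (0.37 log2 as deposited), and 1 fell without either poly(A) library. As deposited, 3 of the 9 were higher and 0 lower, beside 60.1% and 0.473% of all genes. H3-3A fell by 0.53 log2 (0.02 log2 as deposited, and the call lost with the median of site rates), whereas H3-3B and MACROH2A1 differed by -0.07 and -0.18 log2 and did not pass.

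**Figure D3:**
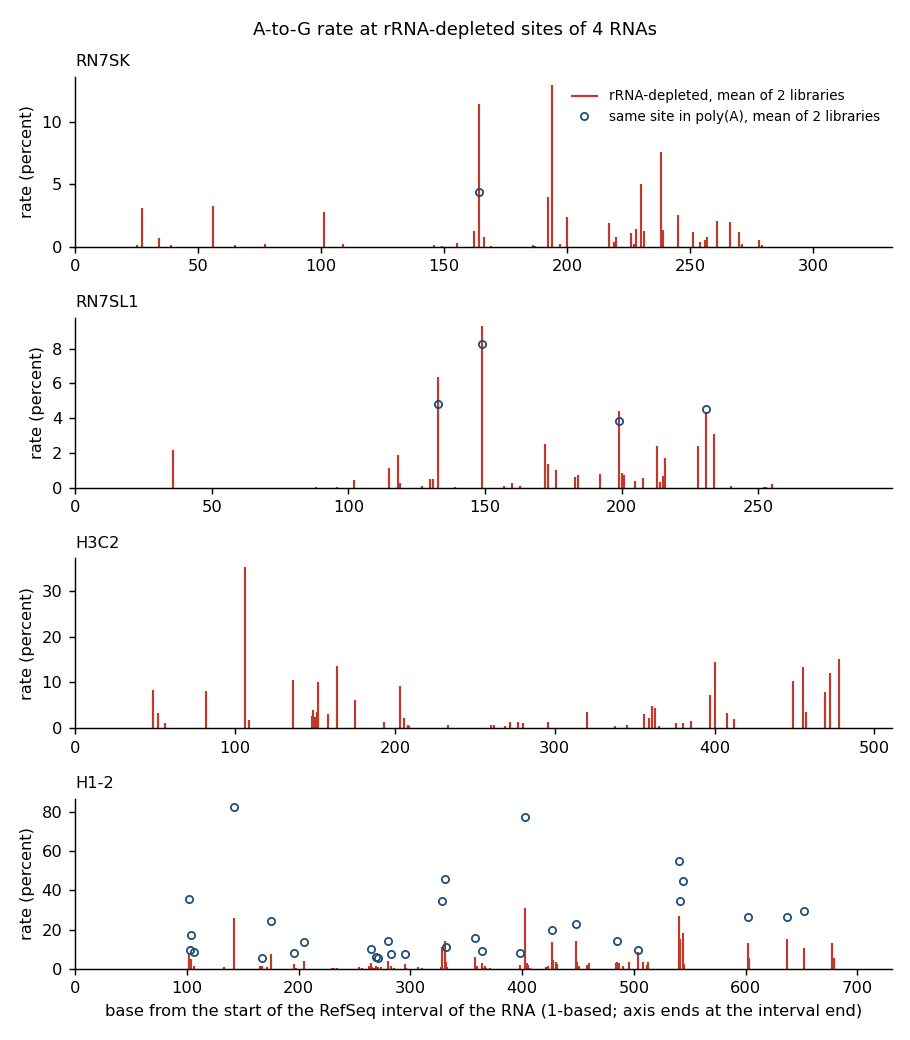
A-to-G rate (y axis, percent) at each site listed in the rRNA-depleted table along RN7SK, RN7SL1, H3C2 and H1-2 (x axis, base from the start of the RefSeq interval). Red lines are means of the 2 rRNA-depleted libraries and blue circles the means of the 2 poly(A) libraries where the same site was listed. H3C2 had no poly(A) site, RN7SK had 1 and RN7SL1 had 4, while the circles of H1-2 lie above the lines at nearly every shared site.

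The other largest falls lay outside the lists. NDRG1, a gene induced by hypoxia and other stress, was at 6.00% and 11.9% in rRNA-depleted libraries, against 18.5% and 22.0% in poly(A) libraries (-1.81 log2, SE 0.18, limma adjusted p = 3.74e-05). FLNA, which encodes the actin crosslinker filamin A, was at 5.11% and 9.59% in rRNA-depleted libraries, against 11.3% and 11.1% in poly(A) libraries (-1.23 log2, SE 0.13). LUC7L3, a splicing-related protein gene, was at 7.14% and 10.1% in rRNA-depleted libraries, against 13.3% and 13.8% in poly(A) libraries (-1.23 log2, SE 0.11). In all 3 both rRNA-depleted rates were below both poly(A) rates as deposited as well.

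G2 and mitosis mRNAs, a list chosen after the data were read, lay mostly above the median gene. The shares of all genes set beside this list are therefore no test of it. Of 34 tested, 16 rose and 1 fell, with a median of 0.23 log2, beside 7.55% of all genes that rose and 11% that fell. As deposited, 33 were higher and 0 lower, beside 60.1% and 0.473% of all genes, with a median of 0.79 log2. After centring, 25 of the 34 had both rRNA-depleted libraries above both poly(A) libraries, beside 27.7% of all genes. MKI67, the gene of the proliferation antigen Ki-67, had the largest rise among genes with at least 10 shared sites and no overlap between the groups. It was at 21.3% and 24.1% in rRNA-depleted libraries, against 8.13% and 7.53% in poly(A) libraries (0.98 log2, SE 0.08, limma adjusted p = 1.30e-05). CENPF, a kinetochore protein gene named after its values were seen, was at 20.2% and 26.0% in rRNA-depleted libraries, against 10.1% and 9.96% in poly(A) libraries (0.64 log2, SE 0.08). TOP2A, TPX2 and BIRC5, with functions in chromosome untangling, spindle assembly and the chromosomal passenger complex, rose by 0.28, 0.34 and 0.36 log2, and all 3 lost the call without either poly(A) library. PRC1, which bundles midzone microtubules, differed by 0.04 log2 (limma adjusted p = 0.685). The list's 16 became 6 when either poly(A) library was left out, and 6 without a variance trend.

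The remaining genes with the largest rises were of mixed function. PPP1R10, a nuclear targeting subunit of protein phosphatase 1, was at 22.8% and 26.7% in rRNA-depleted libraries, against 7.42% and 10.2% in poly(A) libraries (0.95 log2, SE 0.16). TNPO2, a nuclear import receptor, was at 24.1% and 28.1% in rRNA-depleted libraries, against 9.85% and 8.83% in poly(A) libraries (0.93 log2, SE 0.09). PDIA4, a disulfide isomerase of the ER, was at 10.1% and 15.0% in rRNA-depleted libraries, against 4.52% and 4.54% in poly(A) libraries (0.89 log2, SE 0.09). BBC3 (the apoptosis gene PUMA), KRI1, MFAP3 and ZC3H4 rose by 0.77 to 0.78 log2, and of these 4 KRI1 lost the call without poly(A) replicate 1. BBC3 and KRI1 also lost it with the median of site rates, and MFAP3 with sites at an adjusted p under 0.01.

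Lists that hold short-lived or partly nuclear mRNAs had medians above that of all genes, with most members not passing. Of 23 mRNAs known to keep detained introns in the nucleus, 8 rose and none fell (1 fell at an unadjusted limma p under 0.05), with a median of 0.19 log2, beside 7.55% of all genes that rose and 11% that fell. As deposited, 19 were higher and 0 lower, beside 60.1% and 0.473% of all genes, with a median of 0.74 log2. The 8 rises became 3 without either poly(A) library, 5 without a variance trend and 13 without rRNA-depleted replicate 2, and without rRNA-depleted replicate 1, 8 rose and 3 fell. SRSF6, an SR splicing factor gene, was at 14.5% and 18.8% in rRNA-depleted libraries, against 6.73% and 6.57% in poly(A) libraries (0.76 log2, SE 0.07, limma adjusted p = 2.52e-05). MAT2A, whose product makes S-adenosylmethionine and which was named after its values were seen, had 7 shared sites at 11.7% and 15.1% in rRNA-depleted libraries, against 2.58% and 4.00% in poly(A) libraries (1.5 log2, SE 0.21). Its relatives by list SRSF3, RBM39 and SRSF7 differed by -0.03, 0.11 and -0.18 log2 and did not pass. Of 16 short-lived early response mRNAs, 4 rose and 1 fell, beside 7.55% and 11% of all genes, with a median of 0.16 log2. As deposited, 14 were higher and 0 lower, beside 60.1% and 0.473% of all genes, with a median of 0.71 log2. The median was 0.27 log2 with rRNA-depleted replicate 1 alone and 0.08 log2 with replicate 2 alone. MCL1, an anti-apoptotic gene, was at 13% and 16.4% in rRNA-depleted libraries, against 6.30% and 6.77% in poly(A) libraries (0.61 log2, SE 0.08, limma adjusted p = 0.000155). DUSP1, a MAP kinase phosphatase gene named after its values were seen, rose by 0.67 log2, and JUN, ATF3 and BTG2 differed by 0.08, 0.17 and 0.23 log2 without passing.

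Of 93 zinc finger gene mRNAs, 14 rose and 1 fell, beside 7.55% and 11% of all genes, with a median of 0.18 log2. As deposited, 79 were higher and 0 lower, beside 60.1% and 0.473% of all genes, with a median of 0.73 log2. The 14 rises became 7 without a variance trend, 3 without poly(A) replicate 1, 2 without poly(A) replicate 2 and 36 without rRNA-depleted replicate 2. ZNF746, named after its values were seen, was at 31.8% and 32.1% in rRNA-depleted libraries, against 14.7% and 15.0% in poly(A) libraries (0.55 log2, SE 0.11). ZNF768 rose by 0.28 log2 (lost without either poly(A) library), while ZNF24, ZNF664 and ZNF207 differed by 0.14, 0.20 and -0.05 log2 and did not pass. Nucleolar and ribosome biogenesis mRNAs were also a list chosen after the data were read. Of 30 tested, 9 rose and 3 fell, with a median of 0.10 log2, beside 7.55% of all genes that rose and 11% that fell. As deposited, 25 were higher and 0 lower, beside 60.1% and 0.473% of all genes, with a median of 0.65 log2. The 9 rises became 4 without poly(A) replicate 1, and 5 without poly(A) replicate 2 or without a variance trend. MYBBP1A, a nucleolar protein gene named after its values were seen, rose by 0.70 log2, NPM1 (nucleophosmin) fell by 0.58 log2, and DDX21, NCL and TCOF1 differed by -0.07, 0.06 and 0.15 log2 without passing.

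Some lists lay near the median gene. Of 23 cytosolic chaperone mRNAs 3 rose and 2 fell (median -0.02 log2), of 45 ER-targeted mRNAs 5 rose and 8 fell (median -0.08 log2), and of 73 mitochondrial ribosomal protein mRNAs 3 rose and 7 fell (median -0.05 log2). Of all genes, 7.55% rose and 11% fell. As deposited, 17 chaperone mRNAs were higher and 0 lower (median 0.54 log2), and 24 ER-targeted mRNAs were higher and 1 lower (median 0.47 log2). Of the mitochondrial ribosomal protein mRNAs, 43 were then higher and 0 lower (median 0.50 log2). The shares of all genes as deposited were 60.1% higher and 0.473% lower. HSPA1B, an inducible HSP70 gene named after its values were seen, was at 5.63% and 5.82% in rRNA-depleted libraries, against 2.53% and 2.60% in poly(A) libraries (0.60 log2, SE 0.08). HSP90AA1, HSPH1 and HSPA8 differed by -0.08, 0.01 and 0.02 log2 and did not pass, and HSPD1 fell by 0.23 log2 (lost without either poly(A) library, and positive as deposited). Of the ER-targeted genes with the most sites APLP2 fell by 0.33 log2 (lost without either poly(A) library, and positive as deposited), while CANX and SCD differed by 0.13 and -0.15 log2 without passing. MRPL3 fell by 0.37 log2 (lost without either poly(A) library, and positive as deposited), MRPS14, named after its values were seen, rose by 0.92 log2 (lost without poly(A) replicate 2), and MRPL37, MRPL18 and MRPL49 differed by -0.04, 0.08 and 0.20 log2 without passing. The counts of these 3 lists ranged from 2 to 11 rises for ER-targeted mRNAs, 2 to 8 for chaperones and 1 to 9 for mitochondrial ribosomal proteins over the 4 left-out libraries, and from 2 to 19, 0 to 10 and 2 to 13 falls. Nuclear-retained long noncoding RNAs had 3 genes tested, CHASERR, TUG1 and JPX, at 0.04, 0.25 and 0.48 log2, and none passed (1 rose at an unadjusted limma p under 0.05).

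**Figure D4:**
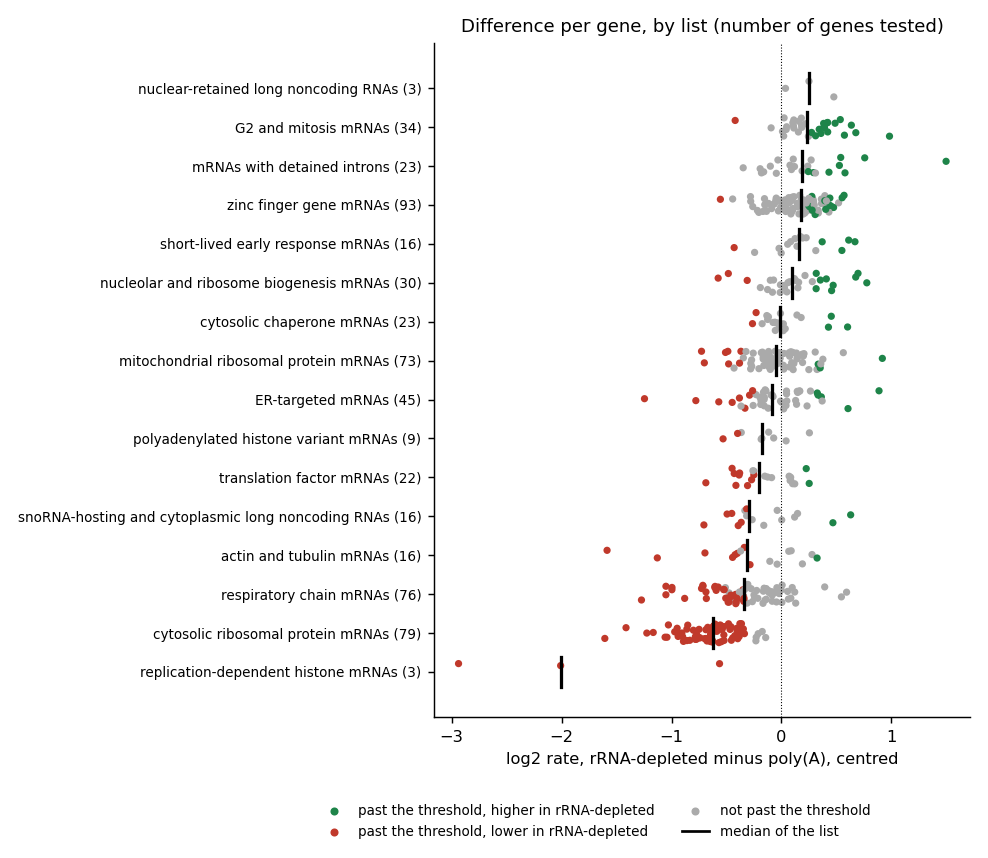
Centred log2 difference of each tested gene (x axis, rRNA-depleted minus poly(A)) by list (y axis, with the number of genes tested); points are genes, black bars list medians, and color marks the call. Cytosolic ribosomal protein mRNAs lie almost wholly left of 0 with a median of -0.62. The G2 and mitosis list, chosen after the data were read, has its median at 0.23.

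Counted by listing instead of rate, 74 symbols had at least 5 sites in the rRNA-depleted table and none in the poly(A) table. RefSeq classed 60 of them as protein-coding, 17 of the 74 were replication-dependent histone genes and 5 were zinc finger genes. At any number of sites, 21 of 294 zinc finger symbols were listed in rRNA-depleted RNA only and 71 in poly(A) RNA only. Of the 17, H2AC7 and H3C4 share 1 entry with the same 12 sites, and H4-16, a histone H4 gene that the list's symbol pattern does not take in, had another 8 sites. Of the 74, 65 also had sites in the rRNA-depleted table of the nuclear enzyme (NLS, nuclear localization signal) and 8 in its poly(A) table. The histone genes among them had a median rate of 2.86% and 4.89%, beside 24.0% and 27.5% for the 74 together. H3C2 had 49 sites, from base 49 to base 478 of an interval of 511 bases, at 3.49% and 6.64% on average and up to 28.3% and 42.5% at base 106. H4C3 had 35 sites at 4.99% and 9.71% on average. A site of H2AC17 (chr6:27893142-27893162, minus strand) is shown as an example of a histone site listed in rRNA-depleted RNA only, with rates of 4.12% and 12.5%.
H2AC17: aggtcgttttAccatgtctgg
The other protein-coding symbols with most sites were ZNF516 (45 sites) and CASTOR2 (35, a relative of the arginine sensor CASTOR1), and their mean rates were 21.7% and 26.5% and 20.8% and 23.0%.

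MALAT1, a nuclear long noncoding RNA, had the most rRNA-depleted-only sites, 161, at low rates of 0.662% and 0.763% on average and at most 5.29% and 7.65%. The tables of the nuclear enzyme listed 1350 MALAT1 sites in rRNA-depleted RNA and 274 in poly(A) RNA. The list of nuclear-retained long noncoding RNAs, MALAT1 included, had 227 sites in rRNA-depleted RNA and 243 in poly(A) RNA. Of its symbols, 3 were listed in rRNA-depleted RNA only and 1 in poly(A) RNA only, so MALAT1 does not stand for the list. LINC00632 had 53 sites at 15.0% and 21% on average, 37 of them with a mean rate of at least 10%. All 53 lay between bases 73449 and 74571 of an interval of 81599 bases, the locus RefSeq also lists under the synonym CDR1-AS, known for a circular RNA. Circular and linear RNA cannot be told apart in these tables. The nuclear enzyme had 15 sites there in rRNA-depleted RNA and none in poly(A) RNA.

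Small structured RNAs of 20 symbols had 170 sites in rRNA-depleted RNA and 29 in poly(A) RNA. Of the 20 symbols, 16 had sites in rRNA-depleted RNA and 10 in poly(A) RNA. Listed in rRNA-depleted RNA only were 10 symbols, and in poly(A) RNA only 4. RN7SK, the 7SK RNA that holds the elongation factor P-TEFb inactive, had 43 sites in rRNA-depleted RNA at 1.61% and 1.98% on average, against 1 site in poly(A) RNA. Its highest base was 194 of 332, at 11.5% and 14.3%. RN7SL1, the RNA of the signal recognition particle, had 38 sites at 1.24% and 1.51%, against 4 in poly(A) RNA, and its near-identical copy RN7SL3 had 35 at 1.96% and 2.40%, listed in rRNA-depleted RNA only. Both copies had their highest rate at base 149 of 299, 8.48% and 10.2% in RN7SL1 and 12.3% and 14.8% in RN7SL3. Another 35 sites listed under LOC105378179 all lay within the interval of the third copy, RN7SL2, and reads of the 3 copies may have been divided among them. RPPH1 (the RNase P RNA), RMRP and TERC (the telomerase RNA) had 14, 9 and 7 sites in rRNA-depleted RNA and none in poly(A) RNA. The list's only gene with enough shared sites, SNORD141A, differed by -0.28 log2 (limma adjusted p = 0.353). The median rates over symbols of this list were 2.86% and 4.29% in rRNA-depleted libraries, against 8.97% and 10.4% in poly(A) libraries, over different symbols and sites.

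In the opposite direction, 697 symbols had at least 5 sites in the poly(A) table and none in the rRNA-depleted table, 635 of them protein-coding. No replication-dependent histone gene was among them, and 29 were zinc finger genes. Of the 697, 161 had sites in the rRNA-depleted table of the nuclear enzyme and 511 in its poly(A) table. ANKHD1 led with 401 sites at 12.4% and 12.7%, followed by HNRNPH2, an RNA-binding protein gene on the X chromosome, with 229 sites at 6.66% and 6.54%. KLHL23 (155 sites), TAF9B (151), MICU2 (134), SYF2 (128), CHMP3 (127) and HMGN5 and UBXN2A (116 each) came next, and each had at most 1 site in the rRNA-depleted table of the nuclear enzyme. Listing in the rRNA-depleted table moved with the number of poly(A) sites: of symbols with 5 to 19 poly(A) sites 26.0% had no rRNA-depleted site, of those with 100 to 199 sites 0.684% (13 of 1901), and of those with 200 or more 0.232% (3 of 1293). The part of site number and of gene naming in these genes' absence was not tested.

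RNAs encoded in mitochondrial DNA had 58 sites in the poly(A) table and none in the rRNA-depleted table. Their rates were low, with a median over 12 genes of 0.265% and 0.254%. COX1, a cytochrome c oxidase subunit gene, had 12 sites at 0.156% and 0.190%. The nuclear enzyme had 1 such site in rRNA-depleted RNA and 15 in poly(A) RNA.

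By annotation, protein-coding genes held 98.0% of shared sites, 96.8% of rRNA-depleted-only sites and 98.1% of poly(A)-only sites. Long noncoding RNAs held 1.02% of the rRNA-depleted-only and 0.394% of the poly(A)-only sites. MALAT1 made up 161 and LINC00632 53 of these 599 rRNA-depleted-only sites. The 2 shares were 1.34% and 0.358% at a site adjusted p under 0.01. At a mean rate of at least 0.1 they were 0.56% and 0.486%. Within protein-coding gene intervals, 12.2% of rRNA-depleted-only sites and 20.7% of poly(A)-only sites lay within 1000 bases of the 3′ end, with 16.1% of shared sites between them. Near the 5′ end the order was the reverse, 7.76% of rRNA-depleted-only sites, 3.28% of poly(A)-only sites and 5.46% of shared sites.

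The cells' identity was checked by listing. The HEK293T neurofilament markers NEFM and NEFL had 9 and 8 sites in rRNA-depleted RNA, against 173 and 113 in poly(A) RNA. LHX1 had 1 site in rRNA-depleted RNA and 0 in poly(A) RNA, and PAX2 and the 6 blood cell markers had none in either.

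The same contrast with the nuclear TadA-8e (NLS) was set beside these results, as a comparison added after the data were seen, at 151731 sites listed in all 4 tables. The library-type difference of a gene was higher with the NES enzyme than with the NLS enzyme for 726 of 4249 genes (17.1%) and lower for 801 (18.9%), in an interaction term over 8 libraries (limma, adjusted p under 0.05). All 79 ribosomal protein mRNAs could be compared: their median was -0.57 log2 with the NES enzyme and 0.02 log2 with the NLS enzyme, and the difference passed for 78, all lower with NES. Leaving out any of the 8 libraries left 71 to 78 of them past the threshold. Actin and tubulin mRNAs had medians of -0.23 log2 with NES and 0.60 log2 with NLS, and 13 of 15 passed as lower with NES. G2 and mitosis mRNAs had medians of 0.21 log2 with NES and -0.16 log2 with NLS, and 18 of 30 passed as higher with NES and 1 as lower. Respiratory chain mRNAs had medians of -0.30 log2 with NES and 0.16 log2 with NLS, and 42 of 72 passed as lower with NES. Of replication-dependent histone mRNAs 2 could be compared, H1-2 at -2.08 log2 with NES and -4.18 log2 with NLS over 8 sites, and H2BC12 at -0.70 log2 with NES and -1.37 log2 with NLS over 45 sites. Both passed as higher with NES, so the fall was larger with the NLS enzyme. Mean rates at these sites were 17.3% and 22.0% in rRNA-depleted NES, 14% and 14% in poly(A) NES, 18.5% and 19% in rRNA-depleted NLS and 8.85% and 9.17% in poly(A) NLS libraries.

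**Figure D5:**
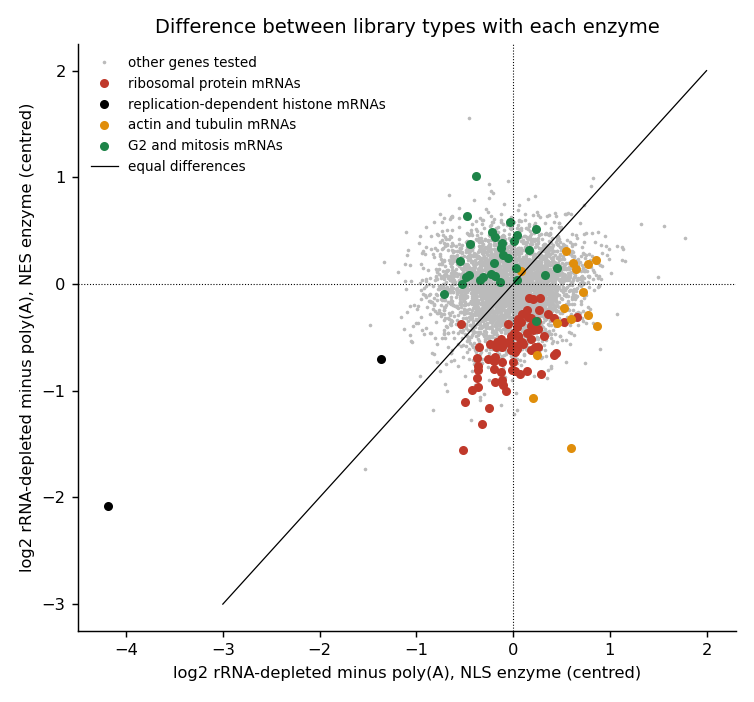
Centred log2 difference between rRNA-depleted and poly(A) libraries per gene with the NES enzyme (y axis) against that with the NLS enzyme (x axis) for 4249 genes, on linear axes. Ribosomal protein mRNAs (red) lie below 0 on the y axis (median -0.57) and around 0 on the x axis (median 0.02), and actin and tubulin mRNAs (orange) lie mostly right of 0.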

How the data were processed

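Per the labels, reads came from stranded libraries of rRNA-depleted or poly(A)-selected RNA. Per the submitters' processing notes, cutadapt, STAR, Bowtie2 and SAMtools were used with hg38, without versions; how sites were called is not given in the sources used here. Each fraction deposited by the authors is the share of reads with the change at a site in a replicate, printed here as a percent. A deposited p-value, adjusted by the authors, comes with each site in either replicate and was under 0.05 in every row read. In the tables read, 4 columns of values were not used.

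Sites were matched by chromosome, position and strand. A gene's rate was the mean over at least 5 shared sites; log2 rates, centred per library on the median gene, were tested with limma 3.58.1 in R 4.3.3 (2 against 2 libraries, trend on log2 site number, two-sided, Benjamini-Hochberg, threshold 0.05). A symbol counted as listed in one table had at least 5 sites there and no entry or position in the other. RefSeq (GRCh38.p14) gave biotypes, intervals and sequences; 98.7% of 10538 symbols matched. On data simulated with the spread of genes of like site number (20 bins), 98% of 100 genes moved by 1 log2 and 61% of 100 moved by 0.5 were recovered with 3 false calls among 6346 genes; for the interaction over 4249 genes it was 92% and 38% with 5 false calls. The simulated noise was drawn separately for each gene, so these false calls do not cover shifts that many genes share within a library. Replicate numbers were not used as pairs.

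Members and lists were chosen with earlier results of these data known, and 3 lists (polyadenylated histone variants, nucleolar mRNAs, G2 and mitosis mRNAs) after the files were read. Lists defined by symbol pattern hold only symbols listed in either table. Named were the 8 genes with the largest difference in each direction past the threshold with at least 10 shared sites and no overlap after centring, up to 4 members per list with the most shared sites, the 8 genes with the most sites listed in one table, and the 6 sites with the largest difference in each direction; entries with several symbols were counted and not named, and genes outside the rule are marked. A few genes that the rule names are not reported here. Alternatives left out each library, changed the gene summary, site filter, pseudocount (0.01), centring and variance trend, or added a replicate block.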

Additional observations from a re-analysis of the deposited data

Results flagged for a closer look

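Flagged because the difference between kinds of library was itself tested between the cytoplasmic (NES) and the nuclear (NLS) enzyme and passed: 726 genes were higher and 801 lower with NES, out of 4249. Among ribosomal protein mRNAs with the most sites, the NES minus NLS difference was -0.41 log2 for RPL4, -0.80 log2 for RPL3, -0.24 log2 for RPL15 and -0.65 log2 for RPS4X (limma adjusted p = 0.00128, 1.53e-05, 0.0471 and 9.24e-05). Among actin and tubulin mRNAs it was -1.26 log2 for ACTB, -2.14 log2 for ACTG1, -0.92 log2 for TUBA1B and -0.80 log2 for TUBB. Among G2 and mitosis mRNAs it was 0.38 log2 for TOP2A, 0.55 log2 for PRC1, 0.50 log2 for TPX2 and 0.38 log2 for BIRC5. Among histone mRNAs it was 2.11 log2 for H1-2 and 0.66 log2 for H2BC12, both falling with either enzyme and more with NLS. The 4 tables were called separately, and the part of that calling in these differences was not tested. No group had the 4 libraries needed to look for a library far from the others.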

How the results depend on the processing

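The mean-rate difference and the medians of the histone and ribosomal protein lists kept their direction under each alternative run. Counts of genes higher and lower in rRNA-depleted libraries, 479 and 696 as reported, were 3816 and 30 as deposited, 269 and 417 with the median of site rates, and 163 and 298 without a variance trend. Leaving out 1 library at a time gave 127 to 1011 higher and 316 to 1350 lower; without an rRNA-depleted library the spread comes from the poly(A) pair alone, and the lone library is assumed to vary like it. Of 54 named genes past the threshold, 37 kept it without each library in turn. Without a variance trend, 15 of these 54 named genes lost the call. Genes listed in one table only numbered 349 and 39 (rRNA-depleted) and 1358 and 451 (poly(A)) with at least 1 and at least 10 sites. Protein-coding shares were 96.2% and 97.4% of rRNA-depleted-only sites and 98.2% and 97.5% of poly(A)-only sites, at a site adjusted p under 0.01 and at a mean rate of at least 0.1. As deposited, the log2 difference turned positive for RPL3 (0.0288), MRPL37 (0.51), MRPL3 (0.18), ZNF207 (0.51), GAS5 (0.10), SRSF3 (0.52), APLP2 (0.22), ATP5F1B (0.18), ATP5F1A (0.20), ATP5PB (0.14), HSPD1 (0.32), ACTB (0.11), TUBA1B (0.15), TUBB (0.45), H3-3B (0.48), H3-3A (0.0219) and DDX21 (0.48), since the shift of the median gene is then kept. With the median of site rates H3-3A was at 0.0393; the cause was not tested. Over the left-out libraries HSP90AA1 ranged from -0.19 to 0.0392, HSPH1 from -0.13 to 0.14 and TUBB from -0.40 to 0.19. The tables give no read depth, which limits what an unlisted site can show.

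With the replicate number as a replicate block, 555 genes were higher and 825 lower, and the mean difference stayed at 6.41 points. Deviations of same-numbered libraries, after centring, correlated at 0.03 across genes. This value cannot show whether they shared a transfection, since centring removes shifts common to a whole library.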
